A study of Mus musculus with 4 samples.

Results

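The Rab GTPases are small membrane switches of vesicle traffic, and their transcripts were compared between splenic cDC2 of wild-type (WT) origin and of Id2 knockout (Id2 KO) origin. A gene belonged to the family set when a probe set of the array carried exactly 1 gene symbol made of Rab, a number and at most a letter and a further digit. This rule gave 59 genes on 62 probe sets, out of 19938 named genes on 28853 probe sets, and the brightest probe set stood for a gene. The cDC2 are conventional dendritic cells that take up material and present it mainly to CD4 T cells. They came from spleens of chimeric mice by cell sorting, with 2 arrays labelled as WT on a Zbtb46-GFP background and 2 labelled as Id2 KO on the same Zbtb46-GFP background, so that the reporter is named for both groups. The labels give no age, sex or treatment and do not say which cells of the chimeras carried the knockout, which of them the host still had, or whether replicates came from separate mice, so the spread behind the p-values is that of these samples and may be technical. A line of the series' design text also mentions bone marrow.

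Rab proteins cycle between a GDP-bound form held in the cytosol and a GTP-bound form on a membrane, where they recruit effectors such as tethers and motor proteins. Exchange factors (GEFs) switch them on, GTPase-activating proteins (GAPs) switch them off, and escort and prenylation proteins attach the lipid that holds them on the membrane. In dendritic cells these proteins steer endocytosed antigen, phagosome maturation, MHC molecules and secretory vesicles. Id2 itself has no DNA-binding region and keeps E proteins from DNA.

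The arrays were alike in brightness, with median intensities between 128.4 and 134.4, and replicate arrays correlated at 0.997 (WT) and 0.996 (Id2 KO) across probe sets. Id2 differed little in the arrays labelled Id2 KO (by -0.27 on the log2 scale, limma adjusted p = 0.172), and its probe set may lie outside the deleted part, so directions rest on the labels. Xist had a log2 intensity of 11.96 in each WT array and of 6.67 and 6.68 in the Id2 KO arrays. Kdm5d, a gene of the Y chromosome, stood at 5.72 and 5.53 in WT and at 8.08 and 8.50 in Id2 KO. Genotype and the sex of the cells therefore cannot be told apart for any gene. Of the Rab genes, 4 (Rab9, Rab9b, Rab33a and Rab39b) lie on the X chromosome. The pan-dendritic cell genes Itgax and H2-Ab1 and the cDC2 gene Sirpa were bright in all 4 arrays, with a lowest log2 intensity of 12.14, whereas the cDC2 markers Mgl2 and Clec10a and the cDC1 markers Xcr1 and Clec9a had means below the level required for testing. Dendritic cell markers also moved. Of 5 tested pan-dendritic cell genes Zbtb46, the factor whose reporter is named for both groups, fell by 1.02 on the log2 scale (limma adjusted p = 1.35e-04). Of 7 tested cDC2 genes Itgam (-0.998) and Cd4 (-0.838) fell and Esam (0.534) rose, and the summed intensity of all 9 cDC2 genes was 15080 to 15490 in WT and 11720 to 12180 in Id2 KO. Of the other lists, 3 of 6 tested monocyte and macrophage genes, 1 of 3 T and NK cell genes and 1 erythroid gene (Alas2) fell, and 0 of 2 cDC1 genes passed. In the arrays labelled Id2 KO all 10 tested genes of an 11-gene neutrophil list fell. All 7 tested genes of a B cell list and all 7 of a cell cycle list rose there. The summed intensity of the 11 neutrophil genes was 17070 to 17770 in WT and 1357 to 2265 in Id2 KO, that of the 8 measured of 9 B cell genes 1046 to 1052 and 2305 to 2651, and that of the 7 measured of 8 cell cycle genes 2783 to 2817 and 7014 to 8490. In sorted cells measured in bulk, fewer cells of a type and less RNA per cell cannot be told apart, and the part of these differences in the Rab results was not tested unless a value is given.

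Most Rab transcripts differed little between the groups, and a single member passed the test. Of the 59 genes, 42 had a mean above the log2 level of 6.77 that was required for testing. Rab44 fell, no member rose, and 41 members did not pass (limma, Benjamini-Hochberg adjusted p under 0.05 over 11963 genes). The share called was 2.38% of the 42, against 8.04% of all tested genes, of which 5.53% were higher and 2.52% lower. The median difference, Id2 KO minus WT, was 0.0025 over the 42 members and 0.0071 over all tested genes, and the median size of a difference without its sign was 0.14 and 0.097. The 95% interval lay within 0.5 of 0 on the log2 scale for 40 of 42 members, with Rab44 and Rab36 as the exceptions, and for 10432 of 11963 tested genes. At an unadjusted p under 0.05, 11 of the 42 members differed (6 higher and 5 lower), against 2473 of all 11963 tested genes (20.7%). The 2 arrays of a group did not overlap those of the other group in 26 of the 42 members, 12 higher and 14 lower. Over all tested genes this held for 6061 of 11963 (50.7%), a smaller share.

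**Figure D1:**
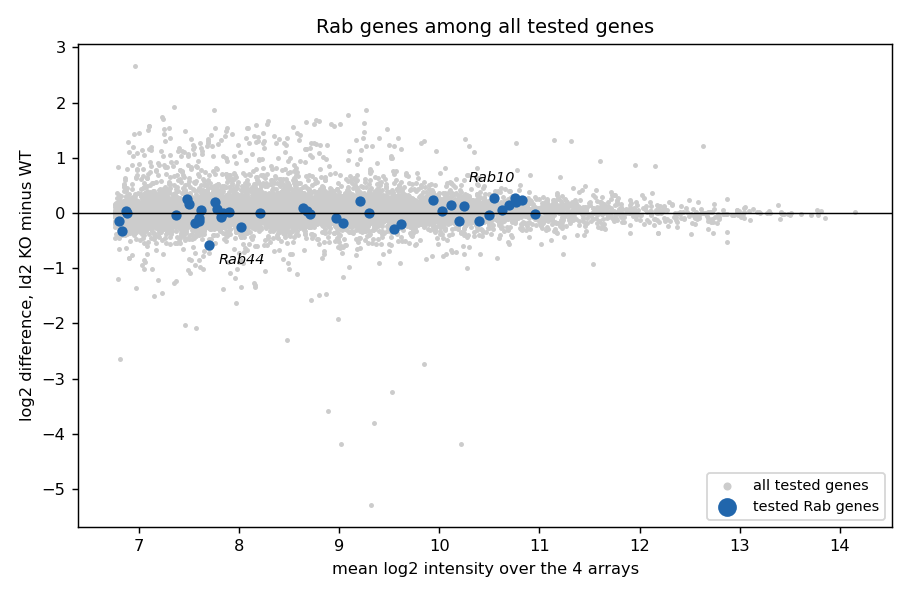
Each point is a tested gene, with its mean log2 intensity over the 4 arrays on the x axis and its log2 difference, Id2 KO minus WT, on the y axis; the 11963 tested genes are grey and the 42 tested Rab genes blue. The Rab genes lie between -0.57 (Rab44) and 0.28 (Rab10), inside the range of all tested genes.

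Transcripts of Rab proteins for regulated secretion and lysosome-related organelles held the one change. Rab44, a large Rab with an added calcium-binding EF-hand region that has been linked to lysosome exocytosis in mouse mast cells, had log2 intensities of 8.04 and 7.93 in WT and, in Id2 KO, of 7.43 and 7.40. Both WT arrays lay above both Id2 KO arrays, by a margin several times the gap between replicates. The group means were 7.99 ± 0.081 and 7.42 ± 0.025 (SD, n = 2 each), a difference of -0.57 (95% interval -0.76 to -0.38; 1.49-fold lower; limma adjusted p = 0.00309). The call held with each array left out, where the difference ran from -0.63 to -0.51 and the adjusted p from 0.00657 to 0.0381, and was lost in a per-gene least-squares test without moderation (adjusted p = 0.342), which called 1 gene in all.

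Neutrophil genes were lower in the same arrays, and their part in the Rab44 difference was not tested. Their differences ran from -4.19 (Ngp) to -1.22 (Ly6g, which was not tested), each larger than that of Rab44. Ngp, a granule protein gene, stood at 12.26 and 12.36 in WT and at 7.45 and 8.79 in Id2 KO, a gap of 1.34 between the Id2 KO arrays. The gap of Ngp was the widest of the 11 genes. Those of S100a8 (1.16), Lcn2 (1.10), S100a9 (0.98), Camp (0.69) and Ltf (0.55) were wide as well. Rab44 differed between the Id2 KO arrays by 0.036. The gaps of Mpo (0.017) and Elane (0.042), both primary granule enzyme genes, were also small. So were those of the chemokine receptor gene Cxcr2 (0.071), the collagenase gene Mmp8 (0.099) and Ly6g (0.134). However, the Id2 KO means of Mpo (6.52), Cxcr2 (6.52), Mmp8 (5.49) and Ly6g (5.62) lay below the level of 6.77 required for testing. Gaps at such dim values are uncertain, while the Id2 KO means of Rab44 (7.42) and Elane (7.15) lay above that level.

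**Figure D2:**
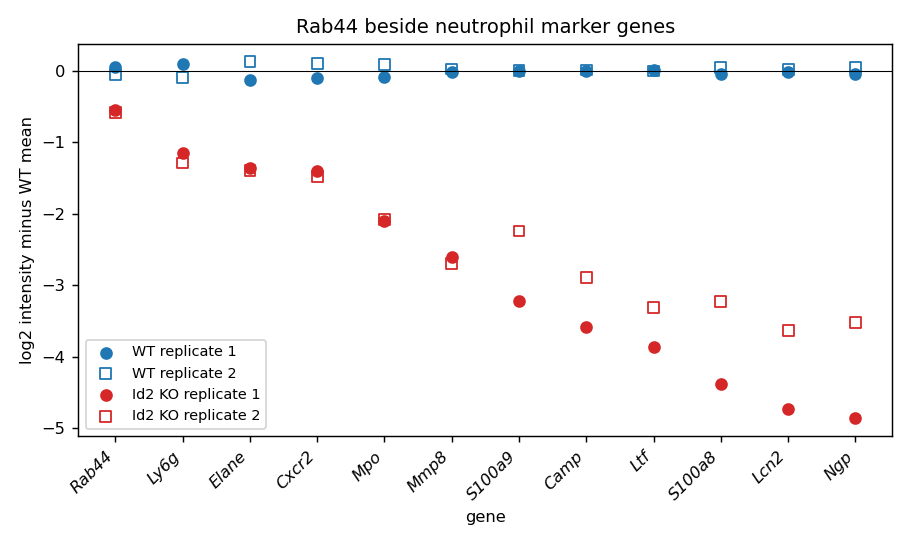
Log2 intensity minus the WT mean of the same gene (y axis) in each of the 4 arrays for Rab44 and the 11 measured neutrophil marker genes (x axis), with WT in blue and Id2 KO in red. Rab44 is lower by 0.57, and the gap between Id2 KO arrays is 0.036 for Rab44 and runs from 0.017 (Mpo) to 1.34 (Ngp) over the neutrophil genes.

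The other 6 tested members of that role did not pass, and 5 of them had differences below 0. The role thus had 1 of 7 called (14.3%), against 8.04% of all tested genes. At an unadjusted p under 0.05, 3 of the 7 differed (1 higher and 2 lower), against 20.7% of all tested genes. Rab29, a lysosome-associated partner of the kinase LRRK2, was at 9.70 and 9.68 in WT and at 9.45 and 9.35 in Id2 KO. Its groups did not overlap, and its difference of -0.29 (95% interval -0.48 to -0.11) missed the threshold (limma adjusted p = 0.0683). Rab32 and Rab38, close relatives of Rab29 that build melanosomes and other lysosome-related organelles, lay on opposite sides of 0, at -0.18 and 0.25 (adjusted p = 0.322 and 0.182). Rab38 was at 7.30 and 7.42 in WT and at 7.70 and 7.51 in Id2 KO, without overlap. Rab3d, a Rab of exocytic granules, differed by -0.17, Rab27a, which docks secretory lysosomes at the plasma membrane, by -0.14, and Rab37 by -0.073. Over the 7 members the median was -0.17, with 6 below 0 under each scaling of the arrays that was tried and with each array left out. Over all tested genes 5726 of 11963 were below 0. The roles were chosen with earlier results of these data known, so the count of signs is a description and not a test.

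The 7 tested Rab genes of recycling endosomes and delivery to the surface all lay at or above 0. None was called, against 8.04% of all tested genes. As the roles were chosen with earlier results known, this count of signs is also a description and not a test. Among members of this role too dim for testing, Rab13 (-0.12) and Rab25 (-0.089) lay below 0 and Rab15 (0.02) above. Rab10, which carries cargo such as Toll-like receptor 4 to the plasma membrane, was at 10.39 and 10.42 in WT and at 10.70 and 10.67 in Id2 KO. Its groups did not overlap, and its difference of 0.28 (95% interval 0.10 to 0.46; 1.21-fold) missed the threshold (limma adjusted p = 0.0680). Rab8a and Rab8b, the nearest relatives of Rab10, which act in exocytosis, differed by 0.27 (0.07 to 0.47) and 0.24 (0.02 to 0.46), with adjusted p-values of 0.115 and 0.199. Rab8a was at 10.54 and 10.70 in WT and at 10.89 and 10.88 in Id2 KO, and Rab8b at 10.59 and 10.83 and at 10.94 and 10.96. In all 3 genes both Id2 KO arrays were above both WT arrays. They were the only 3 of the 7 whose groups did not overlap, against 50.7% of all tested genes. Rab11b (0.13) and Rab11a (0.0007), which run the recycling endosome, Rab35 (0.084), a Rab of fast recycling, and Rab12 (0.06) lay closer to 0. The median of the 7 was 0.13, and over all tested genes 6237 of 11963 were above 0. All 7 were above 0 with arrays centred on their median, 6 of 7 after renewed quantile normalization and with arrays centred on the tested genes, and 5 of 7 without WT replicate 1 or without Id2 KO replicate 1. At an unadjusted p under 0.05, 3 of the 7 were higher and 0 lower, against 20.7% of all tested genes in either direction.

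**Figure D3:**
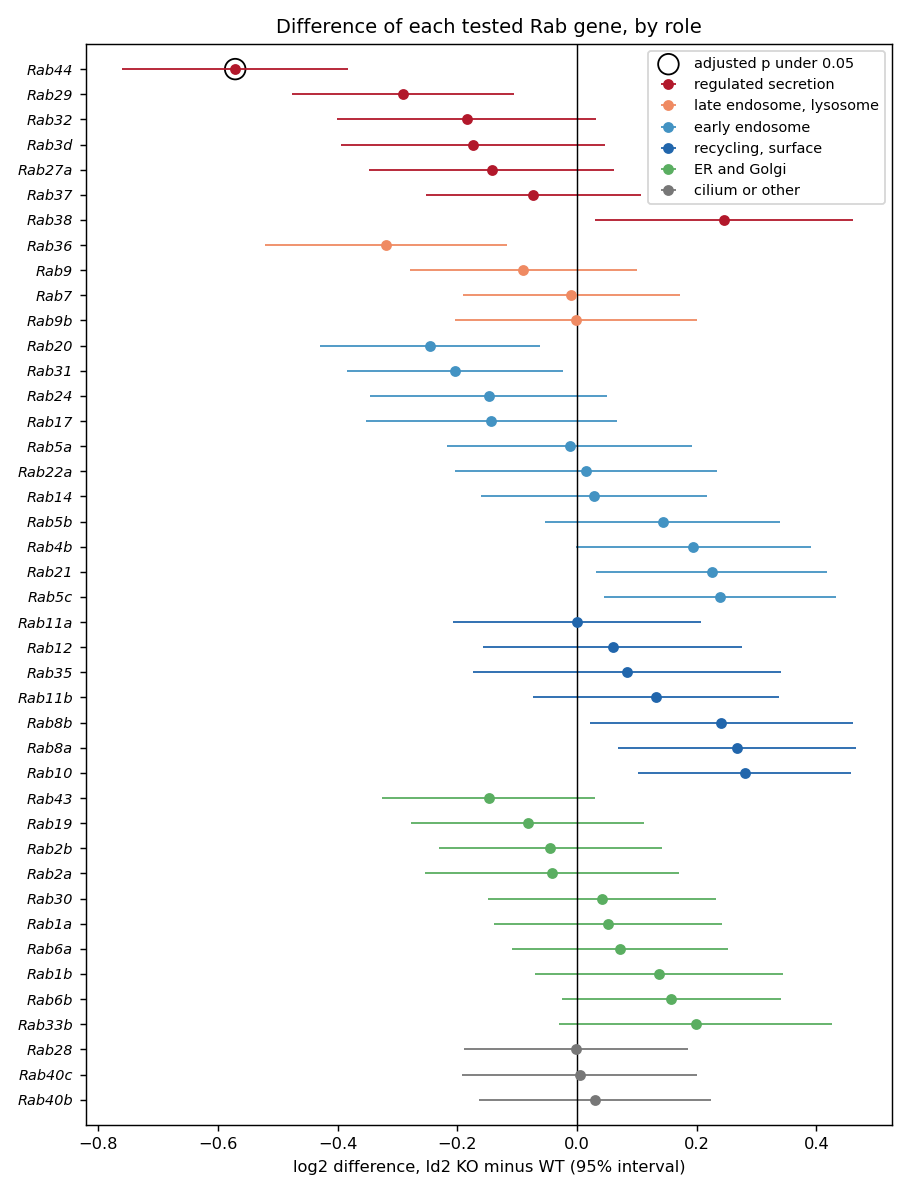
Log2 difference, Id2 KO minus WT, with its 95% interval from limma (x axis) for each of the 42 tested Rab genes (y axis), coloured and ordered by role, with a ring around genes past the adjusted threshold. Rab44 at -0.57 carries the single ring, and the 7 genes of recycling and surface delivery lie between 0.0007 and 0.28.

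Early endosomal Rab genes lay on both sides of 0, with a median of 0.015 over 11 tested. None was called by limma, against 8.04% of all tested genes. At an unadjusted p under 0.05, 4 of the 11 differed, against 20.7% of all tested genes. Of the Rab5 proteins, which drive fusion of early endosomes, Rab5c was at 9.80 and 9.84 in WT and at 10.13 and 9.99 in Id2 KO, a difference of 0.24 (95% interval 0.05 to 0.43; adjusted p = 0.145), while Rab5b differed by 0.14 and Rab5a by -0.012. A further Rab5b probe set gave 0.14 as well. Rab21, which traffics integrins, was at 9.14 and 9.05 in WT and at 9.38 and 9.27 in Id2 KO (0.23; adjusted p = 0.171). Neither gene overlapped between groups, as was the case for 8 of the 11 members and for 50.7% of all tested genes. Rab4b, a Rab of fast recycling, differed by 0.19 (adjusted p = 0.246), Rab14 by 0.028 and Rab22a by 0.015.

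Rab20, a Rab of macrophage phagosomes, lay on the other side, at 8.19 and 8.10 in the WT arrays against 7.89 and 7.91. Its difference was -0.25 (95% interval -0.43 to -0.06; limma adjusted p = 0.116). Rab31, which acts between the trans-Golgi network and endosomes, was at 9.69 and 9.75 in WT and at 9.50 and 9.53 in Id2 KO (-0.20; adjusted p = 0.185). Both genes were lower in both Id2 KO arrays. Rab24, which is linked to autophagy and was counted with this role, differed by -0.15 and the epithelial Rab gene Rab17 by -0.14.

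Rab7, which directs late endosomes and phagosomes to lysosomes, was level between the groups. Its WT arrays were at 10.93 and 10.98 and its Id2 KO arrays at 10.97 and 10.93, a difference of -0.0092 (95% interval -0.19 to 0.17), and the groups overlapped. Rab9, which returns cargo from late endosomes to the Golgi, differed by -0.089 and Rab9b by -0.0014. Rab36, a Golgi-associated Rab that helps place late endosomes and lysosomes, was at 6.96 and 7.03 in WT and at 6.59 and 6.76 in Id2 KO, without overlap. Its difference was -0.32 (95% interval -0.52 to -0.12; adjusted p = 0.0674), and its Id2 KO mean of 6.67 lay below the level required for testing, so the size is uncertain. Of these 4 tested members of late endosomes and lysosomes none passed, against 8.04% of all tested genes. Rab36 alone had an unadjusted p under 0.05, against 20.7% of all tested genes.

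Rab genes of the endoplasmic reticulum and Golgi differed by between -0.15 and 0.20, with no call by limma among 10 tested, also at an unadjusted p under 0.05, and a median of 0.047. Over all tested genes the shares were 8.04% called and 20.7% at an unadjusted p under 0.05. Rab43, which is needed for cross-presentation by mouse cDC1, was at 10.46 and 10.49 in WT and at 10.33 and 10.32 in Id2 KO (-0.15; 95% interval -0.33 to 0.03; adjusted p = 0.337). Its groups did not overlap. Rab1a and Rab1b, which move cargo from the endoplasmic reticulum to the Golgi, differed by 0.052 and 0.14. Rab2a (-0.042) and Rab2b (-0.044), which act in traffic between the same compartments and towards lysosomes, and Rab6a (0.072) and Rab6b (0.16), which act in retrograde transport, had 95% intervals that lay between -0.25 and 0.34. A further probe set of Rab2a gave -0.064, and one of Rab11b gave 0.17. Rab33b, a Rab of autophagosome formation, differed by 0.20, Rab30 by 0.041 and Rab19 by -0.083. The ubiquitin ligase adaptor genes Rab40b (0.03) and Rab40c (0.0044) and the ciliary gene Rab28 (-0.0018) were level as well.

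**Figure D4:**
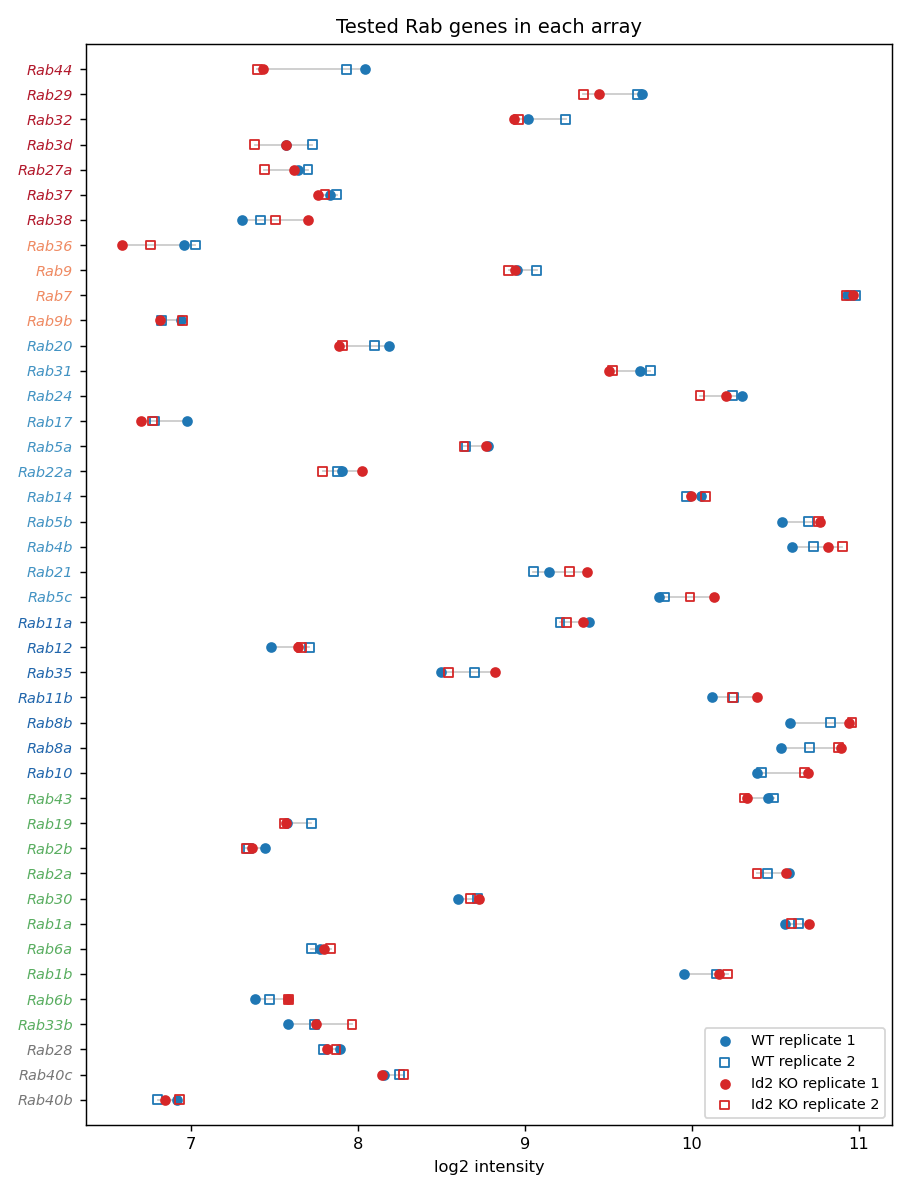
Log2 intensity (x axis) of the 42 tested Rab genes (y axis) in each array, WT in blue and Id2 KO in red, with filled circles for replicate 1 and open squares for replicate 2; name colours mark roles from top to bottom as regulated secretion, late endosome, early endosome, recycling and surface, ER and Golgi, and cilium or other. For Rab44 the WT arrays (8.04 and 7.93) stand clear of the Id2 KO arrays (7.43 and 7.40), whereas for Rab7 all 4 arrays lie between 10.93 and 10.98.

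The remaining 17 members had means between 4.12 (Rab33a) and 6.74 (Rab26) and were not tested. They were Rab3a, Rab3b, Rab3c, Rab4a, Rab7b, Rab13, Rab15, Rab18, Rab23, Rab25, Rab26, Rab27b, Rab33a, Rab34, Rab39, Rab39b and Rab42. Their differences ran from -0.14 (Rab39b) to 0.096 (Rab26). Without a filter all 59 genes were tested and Rab44 was again the single call.

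Promoters are shown for Rab10, Rab8a, Rab29 and Rab20, which are 4 of the 7 named members with the largest differences and have an entry in the RefSeq promoter table, while Rab44, Rab36 and Rab38 were not matched. Each window holds 250 bases before and 50 after the start of the gene, on mouse assembly GRCm38.p6. Capitals mark the general E-box motif CANNTG, of which E proteins can bind some forms. The motif reads the same on both strands.

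Rab10, chr12:3309920-3310219, minus strand: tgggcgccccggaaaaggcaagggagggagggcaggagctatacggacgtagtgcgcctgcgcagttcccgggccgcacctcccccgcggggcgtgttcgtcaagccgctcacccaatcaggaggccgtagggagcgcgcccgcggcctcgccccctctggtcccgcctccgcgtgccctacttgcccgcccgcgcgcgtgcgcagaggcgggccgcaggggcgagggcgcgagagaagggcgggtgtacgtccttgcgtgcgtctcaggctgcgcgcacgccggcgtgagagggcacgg

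Rab8a, chr8:72160950-72161249, plus strand: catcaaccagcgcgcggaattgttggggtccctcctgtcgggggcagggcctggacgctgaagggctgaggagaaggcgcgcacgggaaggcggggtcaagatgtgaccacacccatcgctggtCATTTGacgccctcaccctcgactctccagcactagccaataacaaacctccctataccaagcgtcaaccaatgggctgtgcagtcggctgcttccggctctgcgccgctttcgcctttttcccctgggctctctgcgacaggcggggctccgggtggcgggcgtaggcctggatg

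Rab29, chr1:131867027-131867326, plus strand: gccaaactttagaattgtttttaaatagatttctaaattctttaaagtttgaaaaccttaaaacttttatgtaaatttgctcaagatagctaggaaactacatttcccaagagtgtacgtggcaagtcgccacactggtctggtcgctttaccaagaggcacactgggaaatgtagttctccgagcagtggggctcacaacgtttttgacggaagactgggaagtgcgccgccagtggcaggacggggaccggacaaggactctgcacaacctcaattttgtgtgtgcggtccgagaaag

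Rab20, chr8:11478591-11478890, minus strand: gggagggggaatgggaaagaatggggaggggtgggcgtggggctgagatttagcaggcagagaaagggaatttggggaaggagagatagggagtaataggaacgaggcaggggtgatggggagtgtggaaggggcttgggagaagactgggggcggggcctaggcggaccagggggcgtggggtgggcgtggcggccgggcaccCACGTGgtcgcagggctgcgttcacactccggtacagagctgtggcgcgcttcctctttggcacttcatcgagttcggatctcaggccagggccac

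The Rab8a window held 1 E-box (CATTTG) at position -126 and the Rab20 window 1 (CACGTG) at position -46, counted from the start, and the windows of Rab10 and Rab29 held no match. Of 41 windows of the 36 tested Rab genes with an entry, 63.4% held CANNTG, against 72.3% of all 32851 windows of this length. The narrower form CAGCTG, which is among the CANNTG matches, was found in 24.4% of the Rab windows and 16.3% of all windows, and CACCTG or CAGGTG, which are the same motif on opposite strands, in 14.6% and 20.2%. The form CACGTG, that of the Rab20 window, was found in 12.2% of the Rab windows and 7.15% of all windows. A match is a description of letters and not a bound site.

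Among genes that operate the Rab cycle, few changed. Of 113 tested genes on 4 lists of escort and prenylation proteins, GEFs, GAPs and effectors, 5 rose, 2 fell and 106 did not pass (6.19%, against 8.04% of all tested genes), with a median difference of 0.025. Among 8 tested escort, prenylation and GDP-dissociation genes, Chml, a Rab escort protein gene, rose from 7.26 and 7.42 in WT to 7.88 and 7.63 in Id2 KO (0.41; limma adjusted p = 0.0452). Among 29 tested GEF genes, Dennd6a, a GEF for Rab14, rose from 7.36 and 7.45 to 7.92 and 7.89 (0.50; adjusted p = 0.00549). Rin3, a GEF for Rab5 and Rab31, fell from 10.65 and 10.77 to 10.29 and 10.36 (-0.38; adjusted p = 0.0264). Rab14 (0.028), the partner of Dennd6a, and Rab31 (-0.20), a partner of Rin3, did not pass.

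Of 35 tested GAP-list genes, the centrosomal TBC-domain gene Tbc1d31 rose by 0.59 (adjusted p = 0.00674) and Tbc1d16, a GAP for Rab4, by 0.33 (adjusted p = 0.0360). Evi5, a TBC-domain gene whose product binds Rab11 and also acts in cell division, fell from 8.33 and 8.34 to 7.98 and 7.83 (-0.43; adjusted p = 0.0171). Of 41 tested effector genes only Kif20a rose, from 6.87 and 7.13 to 8.72 and 8.34 (1.53; 95% interval 1.23 to 1.84; adjusted p = 2.10e-04). Its product is a kinesin found as a Rab6 partner that also acts in mitosis, and the 7 tested cell cycle genes, which do not include it, rose by between 1.02 and 1.87 in the same arrays. Rab6a differed by 0.072. Without WT replicate 1 only Kif20a kept its call, without WT replicate 2 Kif20a, Tbc1d31 and Dennd6a did, and without Id2 KO replicate 1 the calls of Chml, Rin3 and Tbc1d16 were lost, as they were with the replicate number as a block, which left 4 calls. Without Id2 KO replicate 2 the calls of Evi5 (adjusted p = 0.0552) and Tbc1d16 (0.0806) were lost. Chml, Rin3 and Tbc1d16 lost theirs with no filter (limma adjusted p = 0.0789, 0.0509 and 0.0704). Chml and Tbc1d16 did so after renewed quantile normalization (0.0536 and 0.0588), and Tbc1d16 with arrays centred on the tested genes (0.0713). Calls were also gained in some alternatives. The lists held 6 calls with no filter and 8 with an intensity-dependent prior, against 7. With each probe set tested they held 10, where a gene can count more than once.

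**Figure D5:**
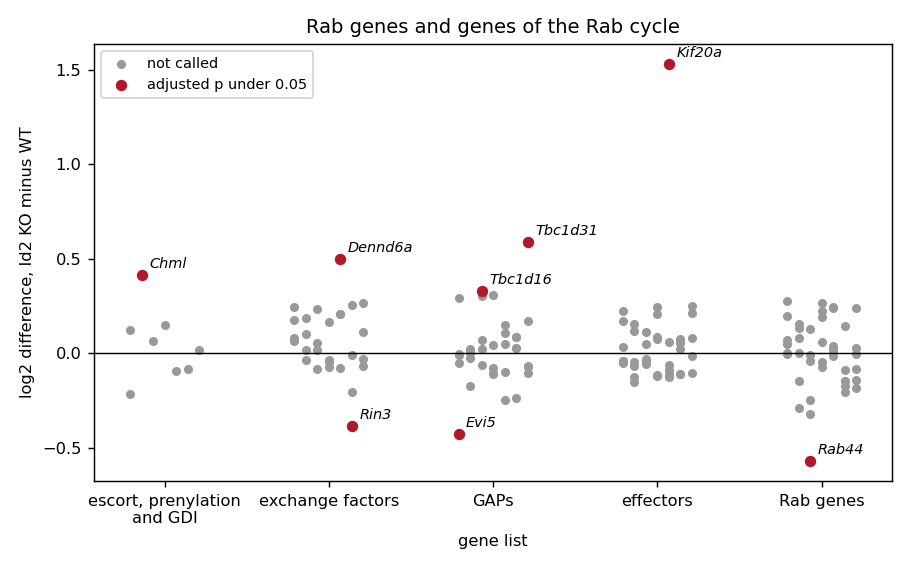
Log2 difference, Id2 KO minus WT (y axis), of the tested genes on the 4 lists of the Rab cycle and of the 42 tested Rab genes (x axis, points spread sideways for legibility), with genes past the adjusted threshold in red. The 7 named genes of the cycle and Rab44 are the called ones, and Kif20a at 1.53 stands apart.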

How the data were processed

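Affymetrix arrays measured cDC2 RNA in 4 samples, 2 per group, after amplification with a NuGen Ovation kit, per the labels' protocols. The authors deposited a linear intensity for each probe set in each sample. Affymetrix Expression Console and RMA are given in the submitters' processing notes, with no version or order. RMA works on the log2 scale, so these intensities appear to have been returned from it, and arrays scaled to each other lose changes in total RNA. No measured background was used, so dim genes are uncertain. Precision is limited by the number of arrays.

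The log2 of each intensity was taken without a pseudocount. Symbols came from the platform annotation: of 28853 probe sets, 21789 had 1 symbol, 1621 had several and 5443 were unlisted, and all 59 Rab genes matched the GRCm38.p6 gene table by gene ID. Testing covered genes whose mean exceeded the 40th percentile, by limma 3.58.1 under R 4.3.3 (lmFit, eBayes, 2 residual and 6.77 prior degrees of freedom, two-sided, Benjamini-Hochberg over all tested genes). Intervals are 95% and not adjusted. Named genes were the called members, the 6 next by size and the brightest of each role, and the called genes of the Rab cycle lists; the other members are given by their differences. The members, lists and roles were chosen with earlier results of these data known. The procedure was tested on simulated data. Filter, normalization, probe set, prior, block and left-out arrays were varied in 15 alternatives.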

Additional observations from a re-analysis of the deposited data

How the results depend on the processing

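Rab44 kept its direction in all 15 alternatives and its call in all except the per-gene least-squares test without moderation, which called 0 Rab genes, 0 genes of the Rab cycle lists and 1 gene in all (at an unadjusted p under 0.05 it counted 6 Rab genes). Renewed quantile normalization called 2 Rab genes, both lower, adding Rab29 (adjusted p = 0.0260). Arrays centred on the median of the tested genes, an alternative chosen after seeing the data, called 3, all lower, adding Rab29 (0.0301) and Rab36 (0.0374), and turned the split of all calls from 68.7% to 54.9% higher. An intensity-dependent prior called 2, with Rab10 as the 1 higher (0.0423). With each array left out 1 to 2 Rab genes were called, all lower, and Rab36 was added without Id2 KO replicate 2 (0.0326). Over all genes the calls ranged from 459 (without WT replicate 1) to 1171 (without Id2 KO replicate 2), with 627 without WT replicate 2, against 962 with all arrays, and on the Rab cycle lists from 1 to 6 against 7. The labels share replicate numbers without stating a pairing, and the deviations of arrays numbered 1 correlated at -0.14 across genes. With the replicate block, 1 Rab gene (Rab44, adjusted p = 0.0134), 4 genes of the Rab cycle lists and 684 genes in all were called. Of the 42 tested members, 15 had differences on both sides of 0 over the alternatives, between -0.1289 and 0.2248, and 0 of these were called in any. They include Rab35, Rab12, Rab22a and Rab11a, and Rab7, Rab1a and Rab40c. Rab7 was at 0.0109 with arrays centred on their median and between -0.0361 and 0.0177 with an array left out. Rab1a was at -0.0023 with arrays centred on the tested genes and between -0.0009 and 0.1046 with an array left out. Rab40c was at -0.0431 after quantile normalization, at -0.0497 with arrays centred on the tested genes and between -0.0594 and 0.0682 with an array left out. The causes of these shifts were not tested. The median of the tested Rab genes stayed between -0.0516 and 0.028. With 2 arrays a group, a difference of the size seen for Rab10 or Rab29 lay at the edge of what passed.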
